A study of Homo sapiens with 6 samples.

Results

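Glycolysis and the target genes of hypoxia-inducible factor (HIF) were described in Het1A cells as 36 genes of the 58735 in the deposited count table, picked by their symbols. Of these, 23 encode glucose transporters, glycolytic enzymes, the enzymes that set fructose-2,6-bisphosphate, and a kinase that gates pyruvate entry into mitochondria. The other 13 encode HIF subunits, their oxygen sensors and further HIF targets. Het1A is a human oesophageal epithelial line that SV40 large T antigen immortalised, which disturbs its p53 and RB pathways in both groups. Cells of the 3 bile acid libraries spent 10 min of each of 5 days in keratinocyte medium at pH 4.0. It carried deoxycholic acid and the conjugates glycocholic, taurocholic, glycodeoxycholic and glycochenodeoxycholic acid, 100 µM of the mix. Cells of the 3 control libraries had 0.1% DMSO, the solvent. Serum was held at 1% in both groups, starting 48 h ahead of the first bath, and RNA was taken 24 h after the last one. No label states an acid medium for the controls, so the effects of acid and of bile acids cannot be told apart. The labels call the libraries biological replicates without saying how the cultures were separated, so the p-values measure the spread between these libraries, which may be partly technical.

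HIF-1α, encoded by HIF1A, and its relative HIF-2α, encoded by EPAS1, are made continuously and destroyed when oxygen is plentiful, because prolyl hydroxylases of the EGLN family mark them for degradation through VHL. When oxygen falls or the hydroxylases are blocked, the factors persist, pair with ARNT and switch on genes that carry a short core sequence, the hypoxia response element. Among the targets are most genes of glycolysis, so that glucose import and lactate output climb together, and genes for vessel growth, mitochondrial removal and collagen modification. Growth factor signals and MYC drive many of the same glycolytic genes in epithelial cells that have plenty of oxygen. HIF1A itself is controlled mostly through its protein, which RNA counts do not measure.

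Total counts lay between 27008714 and 28497721 in the bile acid libraries and between 21006677 and 26218597 in the control libraries, where 3 counts correspond to 0.105 to 0.143 counts scaled per M reads (CPM). Control library 2 stood apart. Counts above 0 covered 24174 to 25190 genes in the bile acid libraries, against 24300 to 25337 in controls 1 and 3 but 19101 in control 2, and the first principal component of log2 CPM, with 73.1% of the variance, placed it at 145 and the others between −44.0 and −6.9. Across genes, its deviation from controls 1 and 3 was lower for longer genes, with a Spearman rho with exonic length of −0.33 over the 17743 genes tested and of −0.17 over the 36 members. For bile acid library 2 against libraries 1 and 3 of its group the rho was −0.35 over all genes and −0.09 over the members. Of the 12 genes listed for oesophageal squamous cells, EPCAM and PAX9 alone reached 1 FPKM (reads scaled to gene length and to library size) in every library. EPCAM marks simple rather than normal squamous epithelium, and KRT4 and KRT13 were at 0 throughout, so the labelled cell type was not borne out by its squamous keratins. The simple epithelial keratins KRT7, KRT8, KRT18 and KRT19 summed to 270 to 289 FPKM in bile acid libraries and 185 to 497 in controls. Summed FPKM of 7 fibroblast markers was 10.3 to 21.9 in bile acid libraries against 4.81 to 19.7 in controls, most of it COL1A1 and the rest mainly PDGFRB, with COL3A1 at 0. Leukocyte markers summed to 5.61 to 7.26 FPKM in bile acid libraries against 4.23 to 5.86 in controls, almost wholly CD14, with PTPRC, CD3E and MS4A1 at 0, and endothelial markers to at most 0.249 against 0.272.

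Most members had higher counts in the bile acid libraries, but no single one passed the test. The log2 fold change was positive for 31 of 36 members (86.1%), against 48.8% of all genes tested. It had a median of 0.40 over the 23 glycolysis members and of 0.33 over the 13 HIF members, against −0.01 over all genes. Adjusted over all genes with the Benjamini-Hochberg method, the quasi-likelihood test of edgeR called 0 members, and 0 genes in all (0%), with a lowest adjusted p of 0.911. At an unadjusted p under 0.05 it held 3 members (8.33%), namely ALDOC, EPAS1 and ANKRD37, against 3.31% of all genes. DESeq2 called 0 members among 14 genes (0.0451% of those tested) and had 5 members at an unadjusted p under 0.05, against 3.15% of genes. Limma-voom called 0 members and 0 genes, with 2 members at an unadjusted p under 0.05, against 2.98% of genes. Since the libraries are bulk RNA, fewer cells of a type and less RNA per cell cannot be told apart.

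In 6 of 36 members (16.7%) the groups did not overlap and bile acid was the higher, against 5.29% of all genes, and in 1 member it was the lower, against 4.89% of all genes. The 6 were PFKM, ALDOA, PKM, HIF1A, EPAS1 and ANKRD37, and the 1 was PFKFB2. Against controls 1 and 3 alone these counts were 8 members, against 12.1% of genes, and 1 member, against 12.7% of genes. Without control 2 the sign was positive in 34 members, against 50.8% of genes, and the medians were 0.33 for glycolysis and 0.24 for the HIF members. An unadjusted p under 0.05 was then held by 11 members, against 7.98% of genes. EdgeR still called 0 of them among 1 gene (0.00547%), with a lowest member adjusted p of 0.383. DESeq2 without that library called 1 member, ENO1, among 148 genes (0.48%).

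**Figure D1:**
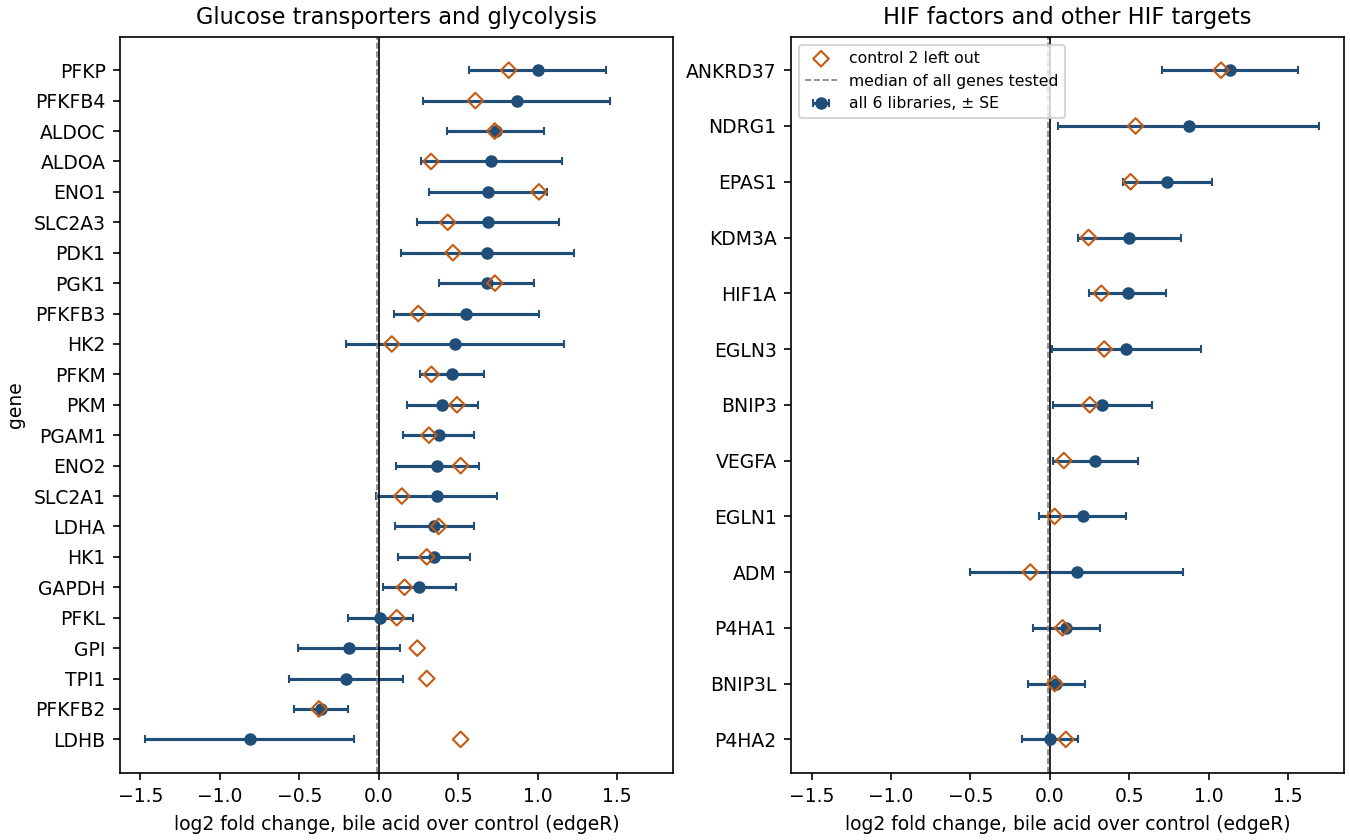
Log2 fold change of each member, bile acid over control, from edgeR (filled points, bars ± SE, n = 3 libraries a group), with the value when control 2 is left out (open diamonds) and the median of all genes tested (dashed line). Of 36 filled points 31 lie above 0, and the diamonds of LDHB, TPI1, GPI, ADM and P4HA2 lie on the other side of 0 from their points.

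SLC2A1, the widespread transporter GLUT1, and SLC2A3, the high-affinity transporter GLUT3, import glucose. SLC2A1 measured 295, 144 and 171 CPM after bile acid in libraries 1, 2 and 3, against 232, 103 and 139 CPM in controls 1, 2 and 3. SLC2A3 measured 20.6, 9.36 and 12.3 CPM after bile acid, against 14.1, 5.21 and 6.90 CPM in controls. For both transporters library 1 was the highest of its group and library 2 the lowest, and the groups overlapped. SLC2A1 had a log2 fold change of 0.37 (SE 0.38) and SLC2A3 one of 0.69 (SE 0.45), and without bile acid library 1 they were 0.0012 and 0.32. Without control 1 they were 0.76 and 1.22, and without control 2 they were 0.15 and 0.43. SLC2A3 has a close paralog, SLC2A14, so its counts are uncertain where reads fit both.

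Hexokinases trap glucose as its 6-phosphate, HK1 as the housekeeping form and HK2 as the form that HIF and growth signals induce. HK1 measured 204, 145 and 193 CPM after bile acid, against 174, 131 and 122 CPM in controls. HK2 measured 95.3, 27.5 and 49.3 CPM after bile acid, against 82.7, 14.2 and 26.3 CPM in controls. HK2 thus varied 3.47-fold within the bile acid group and 5.82-fold within the controls, more than between the group means of 57.4 ± 34.6 and 41.1 ± 36.6 CPM (SD, n = 3 each). Its log2 fold change of 0.48 (SE 0.68) was −0.10 without bile acid library 1, 0.08 without control 2 and 1.503 without control 1.

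GPI, which turns glucose-6-phosphate into fructose-6-phosphate, measured 568, 574 and 673 CPM after bile acid, against 579, 1033 and 452 CPM in controls. Control 2 was the only library above 673 CPM, and the log2 fold change of −0.19 (SE 0.32) was 0.24 without it.

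Phosphofructokinase 1 commits sugar to glycolysis and is built from the liver (PFKL), muscle (PFKM) and platelet (PFKP) subunits. PFKP measured 171, 65.1 and 142 CPM after bile acid, against 95.4, 45.1 and 48.5 CPM in controls. Bile acid libraries 1 and 3 lay above all controls and library 2 below control 1, and the log2 fold change of 1.00 (SE 0.43) was the highest of the glycolysis members. PFKM measured 60.8, 66.3 and 73.6 CPM after bile acid, against 55.5, 38.8 and 51.6 CPM in controls, with no overlap and a log2 fold change of 0.46 (SE 0.20). SENP1, a gene on the opposite strand, covers 8.58% of the PFKM exon bases. SENP1 held 1994 to 2397 counts in bile acid libraries and 879 to 2415 in controls. The strand setting of the counting was not stated, so the PFKM level is uncertain to that extent. PFKL, the most abundant of the 3 subunits, measured 391, 386 and 453 CPM after bile acid, against 433, 458 and 330.0 CPM in controls, and its log2 fold change was 0.01 (SE 0.21).

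The PFKFB enzymes make and break fructose-2,6-bisphosphate, the strongest activator of phosphofructokinase 1, and PFKFB3 and PFKFB4 are HIF targets. PFKFB3 measured 53.3, 22.3 and 35.6 CPM after bile acid, against 39.7, 13.0 and 23.1 CPM in controls. PFKFB4 measured 66.1, 20.9 and 41.4 CPM after bile acid, against 44.2, 13.8 and 12.3 CPM in controls. Both were highest in library 1 of each group, with overlapping groups and log2 fold changes of 0.55 (SE 0.46) and 0.87 (SE 0.59). PFKFB3 had a log2 fold change of 0.20 without bile acid library 1, 0.25 without control 2 and 1.04 without control 1. PFKFB4 had one of 0.41 without bile acid library 1, 0.56 without control 3 and 1.72 without control 1. PFKFB2, the form known from heart, differed from its relatives. It measured 31.1, 30.1 and 30.2 CPM after bile acid, against 35.7, 37.8 and 43.9 CPM in controls. The groups did not overlap, with bile acid the lower, and the log2 fold change was −0.36 (SE 0.17) with all libraries and −0.38 without control 2.

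Aldolase splits fructose-1,6-bisphosphate. ALDOC, the form best known from brain, measured 228, 149 and 279 CPM after bile acid, against 170.0, 128 and 95.8 CPM in controls. Bile acid libraries 1 and 3 lay above every control, library 2 lay below control 1, and the log2 fold change was 0.74 (SE 0.31, edgeR unadjusted p = 0.0447, adjusted p = 0.911). ALDOA, the widespread form, measured 37.8, 31.8 and 41.0 CPM after bile acid, against 30.6, 8.40 and 28.51 CPM in controls, with no overlap. Its log2 fold change of 0.71 (SE 0.44) was 0.33 without control 2. The ALDOA level is uncertain, since 53.5% of its exon bases on chromosome 16 (30064164 to 30070457, plus strand, GRCh38) also belong to other annotated genes. AC093512.2 on the same strand covers 42.3% of them and held 250 to 324 counts in bile acid libraries and 60 to 423 in controls. The summed aldolase step and the ALDOC share of the aldolases, plotted below, carry the same uncertainty.

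TPI1, which interconverts the products of aldolase, measured 731, 679 and 798 CPM after bile acid, against 697, 1347 and 506 CPM in controls. As for GPI, control 2 alone exceeded every bile acid library, and the log2 fold change of −0.21 (SE 0.36) was 0.30 without it. Pseudogenes named after TPI1 held counts equal to 1.23% of its own, the only such share above 1% among the 15 members with pseudogenes of that naming. GAPDH, which makes NADH and 1,3-bisphosphoglycerate and often serves as a loading control, measured 2458, 2474 and 2721 CPM after bile acid, against 2663, 1813 and 1929 CPM in controls. Control 1 lay inside the range of the bile acid libraries and controls 2 and 3 lay below it, with a log2 fold change of 0.26 (SE 0.23) that was 0.16 without control 2 and 0.45 without control 1.

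PGK1, which makes the first ATP of glycolysis (chromosome X, 77910739 to 78129296, plus strand, GRCh38), measured 1074, 663 and 1118 CPM after bile acid, against 731, 629 and 424 CPM in controls. PGAM1, the next enzyme, measured 648, 445 and 590.3 CPM after bile acid, against 501, 388 and 407 CPM in controls. ENO1, the widespread enolase (chromosome 1, 8861000 to 8879250, minus strand), measured 2225, 1369 and 2209 CPM after bile acid, against 1269.6, 1664 and 668 CPM in controls. In all 3 genes bile acid libraries 1 and 3 lay above every control, and library 2 lay among the controls. The log2 fold changes were 0.68 (SE 0.30) for PGK1, 0.38 (SE 0.22) for PGAM1 and 0.69 (SE 0.37) for ENO1. Without control 2, ENO1 had a log2 fold change of 1.01, with an adjusted p of 0.0116 in DESeq2 and of 0.383 in edgeR, and without control 3 the log2 fold change was 0.41. ENO2, the neuronal enolase and a HIF target, measured 139, 98.0 and 124 CPM after bile acid, against 106, 110.0 and 63.4 CPM in controls. Its log2 fold change of 0.37 (SE 0.26) was 0.16 without control 3.

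PKM, pyruvate kinase M, was the most abundant member. It measured 3068, 2616 and 3448 CPM after bile acid, against 2401, 2557 and 1958 CPM in controls. The groups did not overlap, and the log2 fold change was 0.40 (SE 0.23, edgeR adjusted p = 0.911). The table counts whole genes, so the M1 and M2 forms of PKM were not told apart.

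LDHA and LDHB are the subunits of lactate dehydrogenase, LDHA favouring lactate output. LDHA measured 1002, 765 and 1068 CPM after bile acid, against 897, 759 and 569 CPM in controls, with a log2 fold change of 0.35 (SE 0.25) that was 0.20 without control 3. LDHB measured 16.6, 20.9 and 17.2 CPM after bile acid, against 13.8, 70.7 and 11.9 CPM in controls. Control 2 was far above the other 5 libraries, and the log2 fold change of −0.81 (SE 0.66) was 0.52 without it. Of the exon bases of LDHB, 33.4% are shared with AC010197.2, a gene annotated on the same strand that had 0 counts in all 6 libraries. How reads that fit both genes were counted was not stated, so the LDHB level is uncertain. PDK1, which restrains pyruvate dehydrogenase and is a HIF target, measured 32.1, 8.55 and 16.2 CPM after bile acid, against 19.3, 7.78 and 8.22 CPM in controls. Its log2 fold change was 0.68 (SE 0.54) and 0.07 without bile acid library 1, and 1.25 without control 1.

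**Figure D2:**
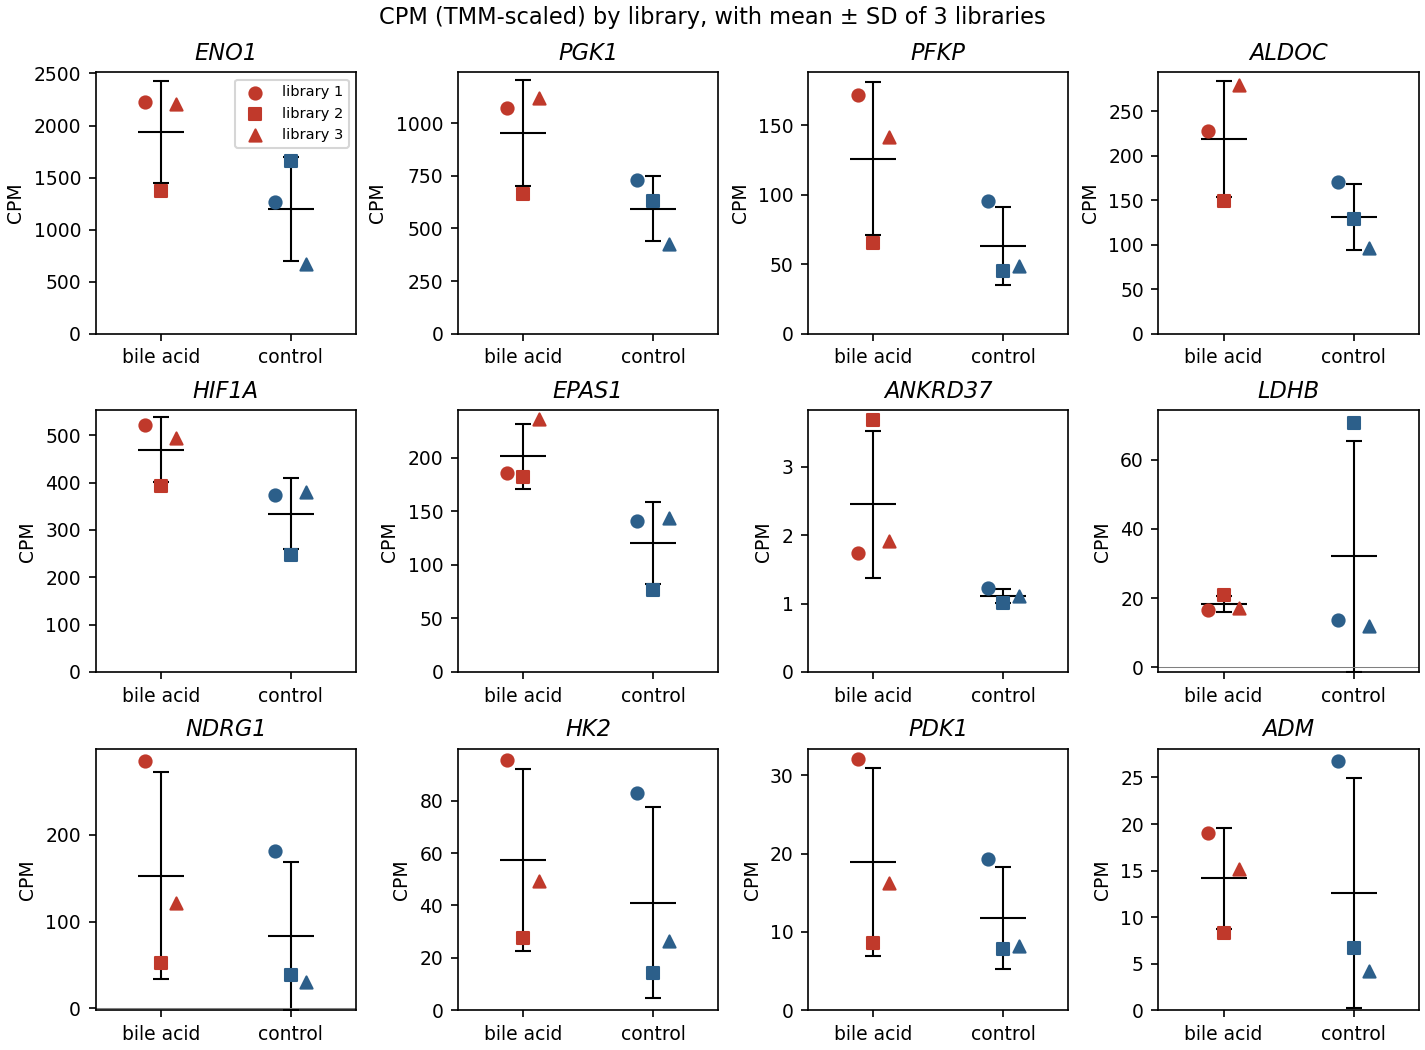
CPM of 12 members in each library (points, marker by library number), with mean ± SD of 3 libraries, bile acid left and control right. EPAS1, HIF1A and ANKRD37 do not overlap between groups, NDRG1, HK2, PDK1 and ADM are high in library 1 of both groups, and LDHB is high in control 2 alone.

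Per length, the pathway had a steep profile in every library, which the plot of FPKM by step shows. Summed FPKM of the steps was highest at GAPDH, at 729 ± 43.9 in bile acid libraries and 621 ± 141 in control libraries. The enolases followed in the bile acid group, at 336 ± 83.2 against 215 ± 84.8 in controls. In controls triosephosphate isomerase came second, at 232 ± 19.3 after bile acid against 271 ± 136, where control 2 alone had 425. Pyruvate kinase M was at 303 ± 41.9 against 233 ± 29.4. By the group means the hexokinases and transporters were the lowest steps, at 32.6 ± 8.74 against 25.5 ± 9.23 and at 38.7 ± 15.3 against 30.3 ± 13.2 (bile acid against control, SD, n = 3 each). The 23 glycolysis members together took 1.19%, 0.912% and 1.22% of all FPKM in bile acid libraries 1, 2 and 3, against 1.07%, 0.674% and 0.758% in controls 1, 2 and 3. Control 1 lay above bile acid library 2, so these shares overlapped. The sum of all FPKM, by which they are divided, was 305870 in control 2 and 199690 to 218660 in the other libraries.

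**Figure D3:**
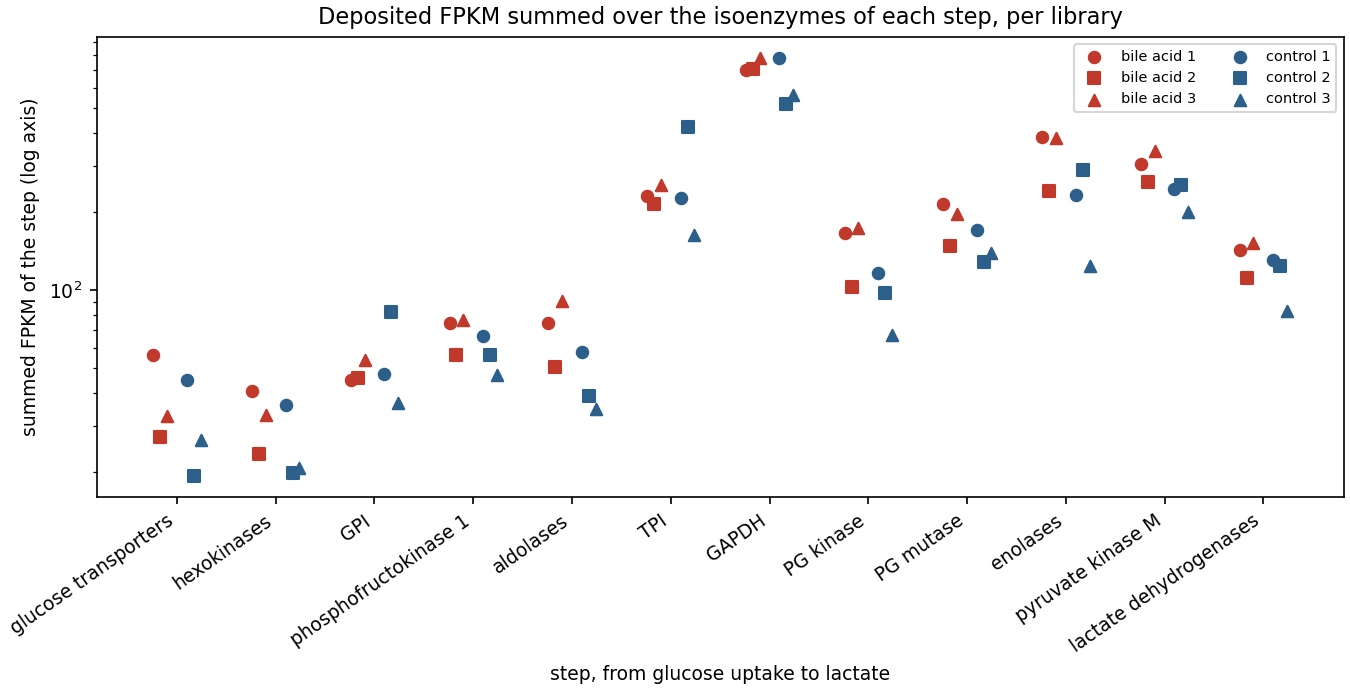
FPKM as deposited, summed over the isoenzymes of each step from glucose uptake to lactate (log axis), with 1 point per library, bile acid left of control in each step. GAPDH is the highest step in each of the 6 libraries, hexokinases and transporters are lowest by group mean, and control 2 stands above the other libraries at GPI and TPI.

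Isoenzyme shares, taken as the share of FPKM within a family and library, were compared for 13 members with a two-sided exact permutation test, whose smallest possible p with 3 against 3 libraries is 0.1. SLC2A3 made up 5.07%, 4.75% and 5.23% of glucose transporter FPKM in bile acid libraries, against 4.44%, 3.73% and 3.67% in controls. It was the only share without overlap between groups, with a difference of 1.07 percentage points (exact permutation p = 0.1, adjusted over 13 shares p = 0.52). PFKP made up 40.5%, 20.5% and 32.5% of phosphofructokinase 1 FPKM in bile acid libraries, against 26.0%, 14.1% and 18.6% in controls. Its groups overlapped, with a difference of 11.6 percentage points (exact permutation p = 0.2, adjusted p = 0.52). PFKL made up 57.4 ± 7.93% of that family after bile acid against 70.1 ± 7.07% in controls (SD, n = 3 each). LDHA made up 94.6% to 96.8% of lactate dehydrogenase FPKM in bile acid libraries, against 96.9%, 83.8% and 95.8% in controls, where the 83.8% was control 2. The LDHA share rests on the uncertain LDHB level. HK2 made up 32.6%, 16.4% and 20.9% of the 2 hexokinases in bile acid libraries, against 33.0%, 10.1% and 18.4% in controls. For HK2, too, library 1 stood highest in each group.

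**Figure D4:**
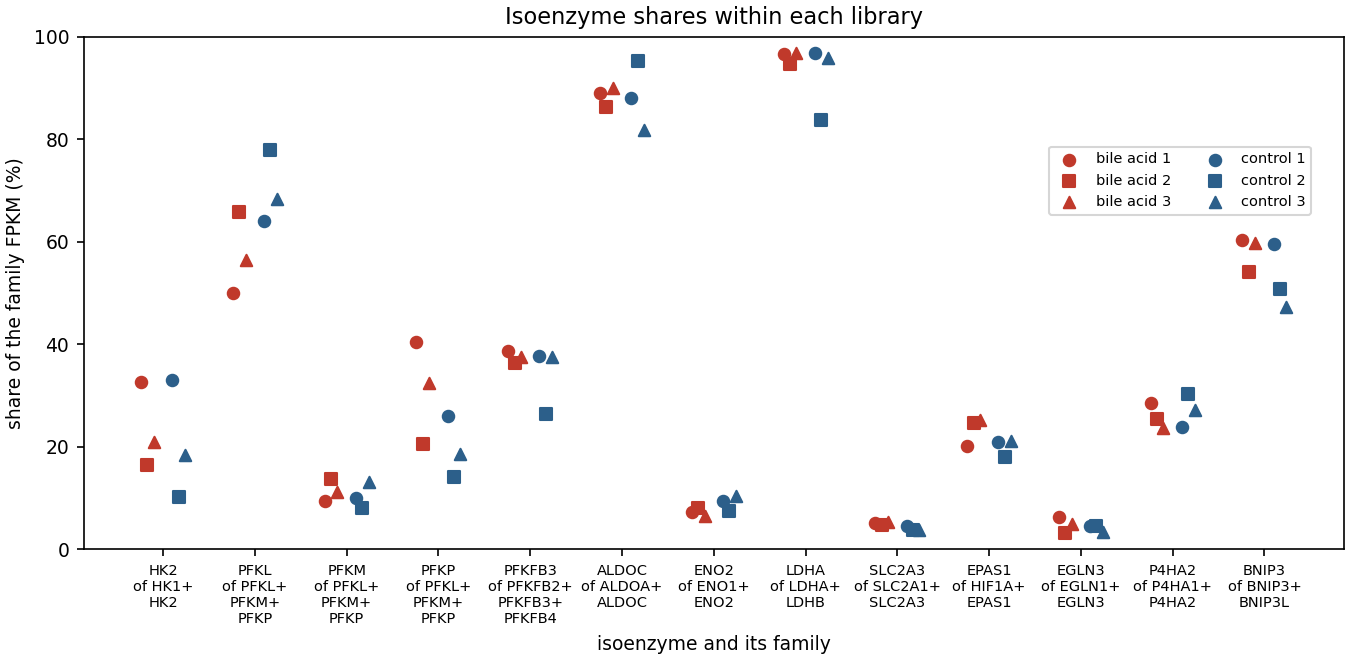
Share of each isoenzyme in the FPKM of its family (%), with 1 point per library, bile acid left of control in each family. SLC2A3 of SLC2A1 + SLC2A3 is the only family without overlap, and control 2 stands apart at LDHA, PFKFB3 and ALDOC.

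The mRNAs of both HIF-α subunits were higher in the bile acid libraries. EPAS1, which encodes HIF-2α (chromosome 2, 46293667 to 46386703, plus strand, GRCh38), measured 186, 182 and 236 CPM after bile acid, against 141, 76.5 and 144 CPM in controls. HIF1A, which encodes HIF-1α (chromosome 14, 61695513 to 61748259, plus strand), measured 522, 391.9 and 494 CPM after bile acid, against 374, 248 and 381 CPM in controls. The groups did not overlap for either gene, in HIF1A by a narrow gap between bile acid library 2 and control 3. The log2 fold change was 0.74 (SE 0.28, edgeR unadjusted p = 0.0317, adjusted p = 0.911) for EPAS1 and 0.49 (SE 0.24) for HIF1A. Control 2 was the lowest library for both, and without it the log2 fold changes were 0.51 and 0.32. Per length HIF1A stood above EPAS1, at 77.6 ± 11.3 against 56.3 ± 13.4 FPKM for HIF1A and 23.5 ± 3.59 against 14.3 ± 4.70 FPKM for EPAS1 (bile acid against control, SD, n = 3 each).

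The prolyl hydroxylases EGLN1 and EGLN3, which encode PHD2 and PHD3, sense oxygen for HIF and are themselves HIF targets. EGLN1 measured 137, 89.7 and 105 CPM after bile acid, against 125, 69.4 and 93.1 CPM in controls. EGLN3 measured 9.45, 3.00 and 5.56 CPM after bile acid, against 6.15, 3.36 and 3.37 CPM in controls. For both, bile acid library 1 was the highest of all, the groups overlapped and the log2 fold changes were 0.21 (SE 0.27) and 0.48 (SE 0.47). Without bile acid library 1 they were 0.03 for EGLN1 and −0.0016 for EGLN3, and without control 1 they were 0.45 and 0.84.

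Among the other targets, ANKRD37, an ankyrin repeat protein whose gene HIF-1 binds, had the highest log2 fold change of all 36 members. It lies on chromosome 4 (185396021 to 185400628, plus strand, GRCh38), was the least abundant member, and had 49, 101 and 55 counts in bile acid libraries, against 34, 18 and 26 counts in controls. That came to 1.75, 3.69 and 1.91 CPM after bile acid, against 1.22, 1.01 and 1.11 CPM in controls, with no overlap. The log2 fold change was 1.13 (SE 0.43, edgeR unadjusted p = 0.0317, adjusted p = 0.911) and 1.08 without control 2, but 0.72 without bile acid library 2. Bile acid library 2, the lowest of its group for 28 of the 36 members (against 37.6% of all genes), was the highest for ANKRD37. UFSP2 on the opposite strand overlaps 35.2% of the ANKRD37 exon bases and had 413 to 446 counts in bile acid libraries and 240 to 544 in controls. The strand setting of the counting was not stated in any label, so reads of these neighbours cannot be told apart.

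NDRG1, a stress-responsive gene that HIF strongly induces in epithelial cells, had the widest range of all members within the bile acid group. It measured 285, 51.9 and 122 CPM after bile acid, against 182, 38.6 and 29.95 CPM in controls. The range was 5.49-fold within the bile acid group and 6.07-fold within the controls, and the log2 fold change of 0.87 (SE 0.82) was 0.06 without bile acid library 1, 0.48 without control 3 and 2.16 without control 1. ADM, which encodes the vasodilator peptide adrenomedullin, measured 19.0, 8.33 and 15.2 CPM after bile acid, against 26.8, 6.72 and 4.22 CPM in controls. Control 1 was the highest library of all for ADM, the range within controls was 6.35-fold, and the log2 fold change of 0.17 (SE 0.67) was −0.12 without control 2 and 1.38 without control 1. VEGFA, the main growth factor of vessels, measured 213, 166 and 148 CPM after bile acid, against 179, 99.2 and 155 CPM in controls, with a log2 fold change of 0.29 (SE 0.27) that was 0.09 with control 2 left out and 0.13 with bile acid library 1 left out.

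BNIP3 and BNIP3L mark mitochondria for removal. BNIP3 measured 449, 284 and 411 CPM after bile acid, against 429, 264 and 217 CPM in controls, with a log2 fold change of 0.33 (SE 0.31) that was 0.14 without control 3 and 0.67 without control 1. BNIP3L hardly varied, at 219 ± 22.04 CPM after bile acid and 213 ± 20.7 CPM in controls (SD, n = 3 each). Its log2 fold change of 0.04 (SE 0.18) lay well inside the spread between libraries.

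P4HA1 and P4HA2, the catalytic subunits of collagen prolyl 4-hydroxylase, were near level between groups. P4HA1 measured 181 ± 31.6 CPM after bile acid against 169 ± 24.6 CPM in controls. P4HA2 measured 171.9 ± 8.51 CPM after bile acid against 172 ± 19.6 CPM in controls (SD, n = 3 each), a log2 fold change of 0.00 (SE 0.18). KDM3A, a histone H3 lysine 9 demethylase that HIF induces, measured 50.4, 31.8 and 44.1 CPM after bile acid, against 39.0, 17.6 and 32.6 CPM in controls. In KDM3A library 1 was the highest and library 2 the lowest of each group, with a log2 fold change of 0.50 (SE 0.32) that was 0.24 without control 2.

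**Figure D5:**
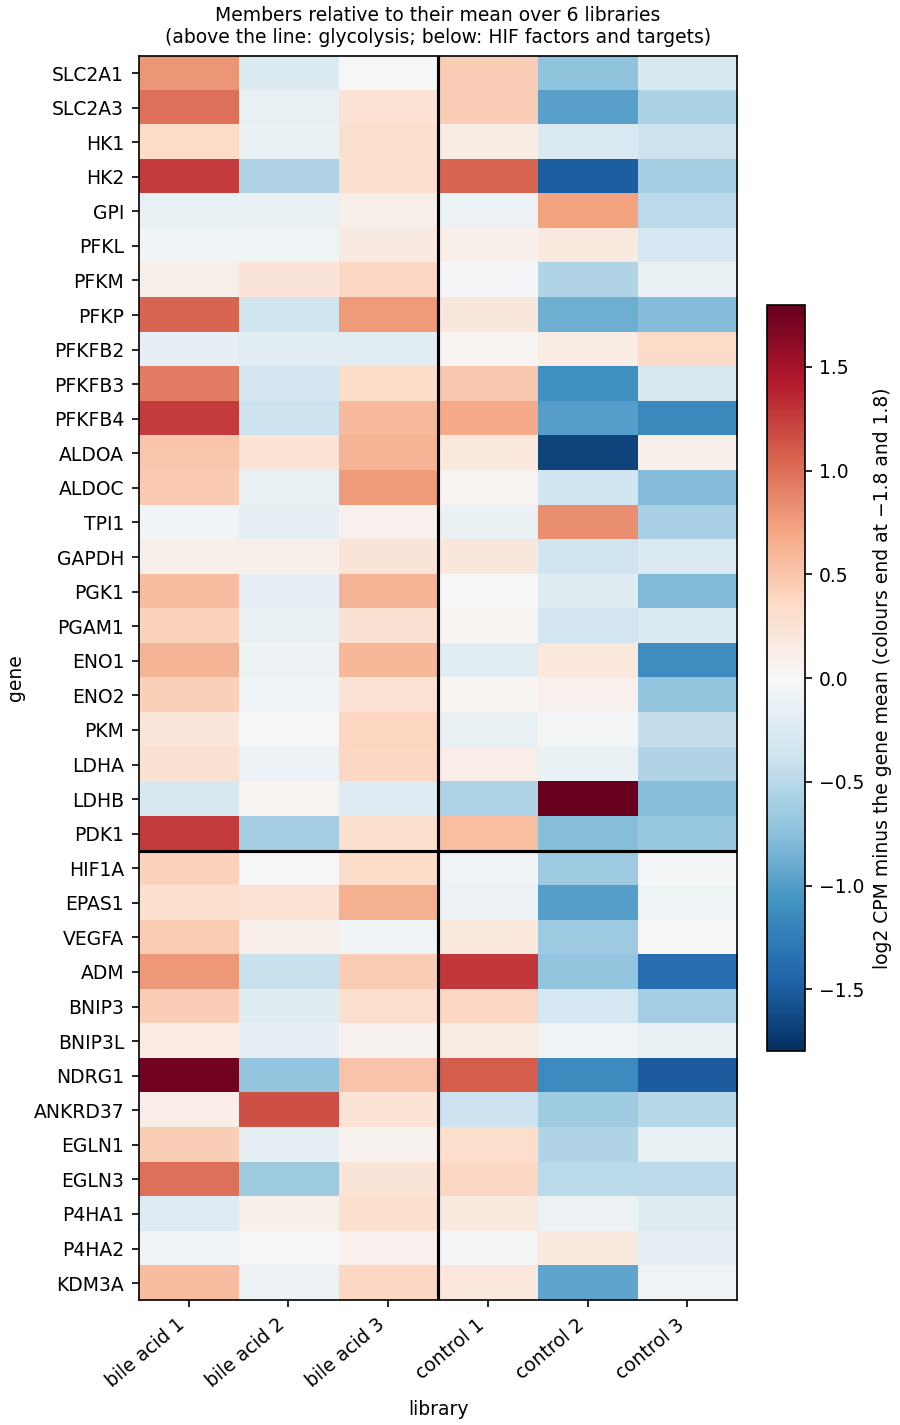
Log2 CPM of each member minus its mean over 6 libraries, bile acid libraries left and controls right, glycolysis above the line and HIF members below. Bile acid libraries 1 and 3 and control 1 are mostly above the gene mean, while bile acid library 2 and controls 2 and 3 are mostly below it.

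Libraries of one group differed as much as the groups did. The median of the glycolysis members relative to their gene means was 0.42, −0.13 and 0.29 in bile acid libraries 1, 2 and 3, against 0.09, −0.33 and −0.54 in controls 1, 2 and 3. The median of the HIF members was 0.44, −0.10 and 0.29 in bile acid libraries, against 0.19, −0.63 and −0.16 in controls. In both lists control 1 thus lay above bile acid library 2, and over all genes the medians lay between −0.06 and 0.03. Within-group range exceeded the difference of group means on the log2 scale in 34 of 36 members (94.4%), against 95.9% of all genes tested.

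The libraries numbered 1 carried the highest values of many members. Bile acid library 1 was the highest of its group for 21 of 36 members (58.3%), against 36.1% of all genes, and control 1 for 25 members, against 29.4% of all genes. Both at once held for 17 of 36 members, 9 of the 23 in glycolysis and 8 of the 13 HIF members, against 14.8% of all genes. More than a 2-fold range within both groups was found in 9 members (25.0%), against 11.3% of all genes. These were SLC2A1, SLC2A3, HK2, PFKP, PFKFB3, PFKFB4, PDK1, ADM and NDRG1, and each was highest in library 1 of both groups. GPI, PFKL, TPI1, ENO1, ENO2, PKM, LDHB and P4HA2 were instead highest in control 2 among controls. COL1A1, the most abundant of the 7 fibroblast markers, followed a like order, at 20.01, 8.06 and 18.2 FPKM in bile acid libraries 1, 2 and 3, against 17.1, 3.70 and 6.38 FPKM in controls 1, 2 and 3. PDGFRB, the next, did not, at 1.802, 2.16 and 2.81 FPKM in bile acid libraries, against 2.46, 1.09 and 2.06 FPKM in controls. The fibroblast markers COL1A2, COL3A1, DCN, LUM and PDGFRA stayed at or near 0 in all 6 libraries. Whether any fibroblasts were present, or bore on the members' values, was not tested.

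Promoter windows show whether the core of the hypoxia response element lies near the start of these genes. The windows run from 250 bases before to 50 bases after a RefSeq start (GRCh38.p14), and the cores searched were ACGTG and GCGTG on both strands, where ACGTG on both strands overlaps in the E-box CACGTG. Windows were found for 31 members, and not for SLC2A3, PFKFB2, VEGFA, BNIP3L and NDRG1. The first-listed window held a core in 74.2% of the 31 members, against 48.4% of 27305 genes, without matching for base composition. LDHA, HK2 and BNIP3 had windows with 6 matches, and no window of EGLN3, P4HA2 or PGAM1 held one, which says only that these letters are absent there. The first-listed windows of the 2 members with the smallest p among the glycolysis members and among the HIF members are shown, as the genes nearest to the threshold, 5′ to 3′ on the strand of the gene, with cores in capitals (CACGT and CACGC are ACGTG and GCGTG on the other strand). They lie at chr17:28576846-28577145 (minus) for ALDOC, chr10:3067720-3068019 (plus) for PFKP, chr2:46297157-46297456 (plus) for EPAS1 and chr4:185396591-185396890 (plus) for ANKRD37.
ALDOC: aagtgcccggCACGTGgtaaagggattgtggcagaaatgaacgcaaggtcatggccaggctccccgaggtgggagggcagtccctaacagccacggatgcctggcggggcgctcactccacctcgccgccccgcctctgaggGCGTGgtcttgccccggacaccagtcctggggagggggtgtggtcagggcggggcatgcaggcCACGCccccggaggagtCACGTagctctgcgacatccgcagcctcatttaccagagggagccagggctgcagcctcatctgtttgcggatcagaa
PFKP: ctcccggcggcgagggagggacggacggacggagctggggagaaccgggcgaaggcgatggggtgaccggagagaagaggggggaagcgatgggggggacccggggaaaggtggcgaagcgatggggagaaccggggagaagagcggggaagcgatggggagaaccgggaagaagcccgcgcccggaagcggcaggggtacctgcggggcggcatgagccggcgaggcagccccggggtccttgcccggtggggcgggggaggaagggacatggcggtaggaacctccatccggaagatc
EPAS1: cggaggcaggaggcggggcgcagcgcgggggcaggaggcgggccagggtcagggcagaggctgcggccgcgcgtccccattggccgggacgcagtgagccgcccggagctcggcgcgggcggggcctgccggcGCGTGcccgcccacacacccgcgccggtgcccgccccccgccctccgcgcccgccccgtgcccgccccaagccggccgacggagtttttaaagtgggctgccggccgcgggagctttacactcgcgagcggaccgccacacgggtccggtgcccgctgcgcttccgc
ANKRD37: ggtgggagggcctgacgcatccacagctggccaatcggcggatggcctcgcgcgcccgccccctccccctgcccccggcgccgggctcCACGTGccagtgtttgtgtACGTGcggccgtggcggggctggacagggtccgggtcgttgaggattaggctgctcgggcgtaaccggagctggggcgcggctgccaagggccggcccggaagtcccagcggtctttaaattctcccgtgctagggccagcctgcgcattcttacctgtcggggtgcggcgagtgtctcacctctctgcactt
ALDOC held 5 overlapping or separate matches in this window, ANKRD37 held 3 and EPAS1 held 1. PFKP held 0 in the first of its 4 windows, and 2 of the others held at least 1. A match is a string of letters and was not tested for binding.

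Beyond the members, 74 other genes of HIF control and glucose use were looked up, of which 63 were tested. None passed in edgeR (0 called with all libraries and 0 without control 2), 42 had a positive log2 fold change (66.7%, against 48.8% of all genes), and the median was 0.17. At an unadjusted p under 0.05 there were 4 (6.35%), against 3.31% of all genes. Among the higher genes with the smallest p were SLC16A3 and TFRC. SLC16A3, the lactate exporter MCT4, measured 279, 151 and 207 CPM after bile acid, against 149, 123 and 105 CPM in controls. TFRC, the transferrin receptor, measured 63.8, 21.8 and 31.5 CPM after bile acid, against 21.7, 11.8 and 17.8 CPM in controls. In both genes the groups did not overlap, in TFRC by a gap of 21.75 against 21.74 CPM, and bile acid library 1 was the highest, with log2 fold changes of 0.76 (SE 0.27) for SLC16A3 and 1.19 (SE 0.42) for TFRC. The 3 lower genes with the smallest p were NDUFA4L2, VHL and HILPDA. NDUFA4L2, a mitochondrial protein that HIF-1 induces, measured 4.49, 4.75 and 3.79 CPM after bile acid, against 6.86, 7.28 and 6.43 CPM in controls, without overlap and with a log2 fold change of −0.66 (SE 0.24). VHL, which presents HIF-α for degradation, had a log2 fold change of −0.38 (SE 0.25) and −0.08 without control 2, where it stood at 216 CPM. HILPDA, a lipid droplet protein, had one of −0.31 (SE 0.23).

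The authors' deposited table of gene comparisons lists all 36 members, with 32 positive log2 fold changes and a lowest adjusted p of 0.868, that of ANKRD37. In the authors' deposited table of gene sets, canonical glycolysis, with 16 genes, has a normalized enrichment score of 2.37 (adjusted p = 5.47e-05), and response to hypoxia, with 291 genes, has one of 2.41 (adjusted p = 5.12e-09). Some other glycolysis and glucose sets score lower there than canonical glycolysis. Glycolytic process, with 84 genes, has a score of 1.75 (adjusted p = 0.00411), and glucose catabolic process, with 25 genes, one of 1.73 (adjusted p = 0.0239). The labels name no tool for the gene set table, and it comes from the same 6 libraries.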

How the data were processed

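Illumina reads, paired and 150 bp long, came from 6 Het1A libraries, per the labels' protocols. The submitters' processing notes name GRCh38, DESeq2, featureCounts and HISAT2 2.0.5, with no role for any. No annotation is named, and all 36 members have the coordinates and lengths of GENCODE release 29. The count table as deposited holds whole-number read counts for 58735 genes. The deposited FPKM are counts per kilobase and M fragments as the authors computed them. The deposited normalized counts are a signal. Divided out by 1 factor per library, 100% of its values were whole reads within 0.001. Their reads exceed the count table by 3.84% to 4.20% per library, and edgeR on them called 0 genes. The deposited comparison gives log2 fold changes, a test score, p-values and adjusted p-values per gene, per the file headers, and the deposited gene set table gives a score and p-values per term.

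The main test was edgeR 4.0.16 (R 4.3.3), with TMM scaling, filterByExpr and Benjamini-Hochberg adjustment at 0.05 over all 17743 genes that passed. All 36 members passed. SE is the size of a log2 fold change over the square root of F. CPM are TMM-scaled. Alternatives were DESeq2 1.42.0, limma 3.58.1 (voom, and log2(FPKM + 1) or log2(FPKM + 0.1)), other scalings and filters, protein-coding genes alone, a replicate block, lowess (span 0.3) removal of the length trend of each library, and each library left out. The members and lists were chosen with earlier results of these data known. All members are named, and of the wider list the 3 genes with the smallest p in each direction, of which 1 is not reported here. Overlaps of exons come from GENCODE release 29, and floors of 3 counts cover counting error only.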

Additional observations from a re-analysis of the deposited data

How the results depend on the processing

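Of 828 member values under 23 alternative settings, 781 kept their sign and their side of the threshold, 39 changed sign and 8 became called. In 26 of 36 members the sign held throughout. Members called were 0 in 21 settings. All genes called were 14 with DESeq2, 0 to 1 with 1 library left out, and 148 with DESeq2 without control 2, which called 1 member. With the replicate block edgeR called 0 genes and 0 members, with 12 members at an unadjusted p under 0.05, against 6.25% of all genes. The deviations of same-numbered libraries correlated at 0.307, 0.382 and 0.098, and bile acid library 3 correlated best with control 1, at 0.144. Control 2 stood so far apart that controls 1 and 3 deviated alike from the control mean. These correlations therefore cannot decide whether the numbers pair the libraries. No label states a pairing, so the main test used none. With the replicate block and replicate 2 left out of both groups, 350 of 17989 genes and 7 members were called (ALDOC, ENO1, NDRG1, PDK1, PFKFB4, PFKP and PGK1). This setting and DESeq2 without control 2 were chosen after seeing the data.

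With 1 library left out, the median log2 fold change was 0.27 to 0.57 for glycolysis, 0.13 to 0.67 for the HIF members and 0.04 to 0.35 for the wider list. Log2 fold changes that changed sign then ranged over −0.10 to 1.503 for HK2, −0.41 to 0.24 for GPI, −0.11 to 0.11 for PFKL, −0.47 to 0.30 for TPI1, −1.20 to 0.52 for LDHB, −0.24 to 1.38 for ADM, −0.018 to 0.13 for BNIP3L, −0.0016 to 0.84 for EGLN3, −0.017 to 0.23 for P4HA1 and −0.068 to 0.10 for P4HA2. DESeq2 without control 2 gave 0.24 for GPI, 0.30 for TPI1, 0.52 for LDHB, −0.12 for ADM and 0.10 for P4HA2. The replicate block without replicate 2 gave 0.28 for GPI, 0.37 for TPI1, 0.41 for LDHB and 0.10 for P4HA2. PFKL was −0.0104 with upper-quartile factors, −0.0048 with 1 CPM in 3 libraries, −0.0034 on log2(FPKM + 1) with or without a minimum mean, −0.0032 on log2(FPKM + 0.1), −0.0096 over protein-coding genes, and −0.16 with the length trend removed or −0.11 with the replicate block too, where TPI1 was 0.025. P4HA2 was 0.038 by library size alone, 0.042 without a filter, 0.016 with DESeq2, 0.0043 with limma-voom and 0.0048 with the replicate block. The causes were not tested.

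Differences in isoenzyme share ranged with 1 library left out over −2.37 to 9.09 percentage points for HK2, −16.9 to −8.83 for PFKL, −0.047 to 2.47 for PFKM, 6.91 to 16.9 for PFKP, −0.091 to 5.59 for PFKFB3, −3.28 to 3.49 for ALDOC, −2.67 to −1.19 for ENO2, −0.35 to 6.22 for LDHA, 0.934 to 1.32 for SLC2A3, 2.29 to 4.96 for EPAS1, −0.13 to 1.46 for EGLN3, −2.93 to 0.32 for P4HA2 and 2.91 to 9.05 for BNIP3. With counts in place of FPKM the ALDOC share differed by −0.079. ANKRD37, with 18 to 101 counts a library, is the member whose depth limits its precision most.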
